A study of Helianthus annuus with 142 samples.

Results

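By a rule on leaf RNA levels, 70 of 57891 nuclear genes of sunflower, Helianthus annuus, had a mean leaf level at least 8-fold lower in water-stressed plants than in control plants and still averaged at least 1 CPM under stress. CPM is a gene's count scaled to the same library total in every plant. The fold was taken on means over all plants after 0.5 CPM was added to each mean. Another 26 genes had the same fall with a stress mean under 1 CPM and are not among the 70. At the edge of the fold threshold, the last gene inside averaged 10.5 CPM under stress and 87.5 CPM in control plants, and the first gene outside averaged 5.46 CPM under stress and 47.1 CPM in control plants. At the edge of the level threshold, the stress mean was 1.13 CPM for the last gene inside and 0.938 CPM for the first gene outside. The 70 genes were chosen by these pooled stress and control means, so the pooled fall is a description and supports nothing here.

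The plants were 16 hybrids and 8 lines, each under water stress and under full water supply, and each hybrid carries the names of 2 of the lines. In hybrid names the first place is held by SF009, SF092, SF109 or SF193 and the second by SF279, SF317, SF326 or SF342, in all 16 combinations. The stressed leaves came from pots whose fraction of transpirable soil water (FTSW) was 0.1, and control leaves from pots at an FTSW of 1, per each sample's own labels. The growth protocol attached to all samples speaks of a subset of XRQ plants, a name that none of these samples carries, so how far its harvest steps hold for these plants is unclear. Every genotype has 3 stressed and 3 control plants, 1 library a plant, but only 1 control library is present for SF342. Total counts ran from 3286856 to 13765563 in 72 stress libraries and from 2791984 to 13608175 in 70 control libraries.

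FTSW is the part of the soil water open to the roots that has not yet been used, so a low value marks a plant that has nearly emptied its pot. In water-short leaves, stomata close under abscisic acid, expansion growth and photosynthesis slow, and many transcripts of growth and photosynthesis decline while those of protective proteins accumulate. Leaf RNA is a mixture of mesophyll, epidermis, guard cells and veins, so fewer cells of a type and less RNA per cell cannot be told apart in these values. The identifiers matched 0 of 83308 genes in the reference table, so the 70 genes have no symbols or functions here and are given by identifier and position; no build is named for these coordinates in the sources at hand.

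Genotype labels were checked on 3266 genes that are on in some genotypes and off in others. In 3 libraries these genes agreed better with another genotype than with the label. The library labelled SF092_SF317 stress replicate 3 matched its own label at 51.9% of these genes and SF326 at 99.0%. For the library labelled SF326 stress replicate 3, the match was 49.4% with its own label and 98.5% with SF092_SF317. SF009_SF279 control replicate 1 matched at 69.9% its own label and at 82.4% SF009_SF326. The SF009 libraries each matched SF009 best, but at only 80.2% to 89.7% of these genes. Control replicate 2 of SF009 matched its label at 82.3% and SF009_SF326 at 81.6%. In the other genotypes, every library that went with its label matched it at 95.6% or more. The 3 libraries that agreed better with another genotype stay under their labels below. For the sums and the counts of calls that they touch, values without them are also given; those for sums, placements and single genotypes were added after the data were seen.

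The 70 genes span a wide range of expression. Their stress means ran from 1.13 to 1048 CPM, with a median of 3.47 CPM, against control means from 12.6 to 8795 CPM, with a median of 45.4 CPM. Together they held 0.173% ± 0.211 of the counts under stress, against 1.66% ± 0.377 in control plants (SD over 72 and 70 libraries). The fold between means ran from 8.19 to 73.1, with a median of 11.3. No gene of the 70 had all its stressed plants below all its control plants, a pattern met by 0.0027% of the 36989 genes tested.

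Most of the reads of the 70 genes came from a single gene; CPM is not divided by length, so longer genes collect more reads and such shares are shares of reads. HanXRQChr11g0325011, on chromosome 11 from 20608692 to 20610351 on the plus strand, had 22.9, 455 and 6915 CPM in its lowest, median and highest stressed plant. Its lowest, median and highest control plants had 3868, 8803 and 15530 CPM, so 3 stressed plants reached above the lowest control plant. It made up 60.7% of the summed stress CPM of the 70 genes and 53.0% of their summed control CPM. The other 69 genes summed to 679 ± 823 CPM in stressed plants and 7789 ± 2023 CPM in control plants (SD over plants), which is 11.5-fold lower under stress.

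HanXRQChr15g0494701 had the next highest control CPM; it lies on chromosome 15 from 152420998 to 152423220 on the minus strand. Its stressed plants ran from 3.06 to 1535 CPM with a median of 29.4 CPM, and its control plants from 771 to 3370 CPM with a median of 1435 CPM. Only 2 of the 72 stressed plants reached the lowest control plant. The mean was 150.0 CPM in stressed plants and 1499 CPM in control plants, while the median was 48.9-fold lower under stress.

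That gap between mean and median recurred throughout the 70 genes, and it bears on how far they stayed on under stress. By medians over plants, the typical gene was 28.8-fold lower, in a range of 9.16 to 766. These values leave out the 2 genes with a stress median of 0, which have no finite fold. The median stressed plant had less than 1 CPM in 30 of the 70 genes and no count at all in 2 of them. In 51 genes at least 1 stressed plant had 0 counts. Only 8 genes were at 1 CPM or above in every stressed plant. A description as genes kept on in stressed leaves therefore holds for the mean of the plants and, in 30 genes, not for the median plant (32 genes without the 3 libraries that go against their labels).

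**Figure D1:**
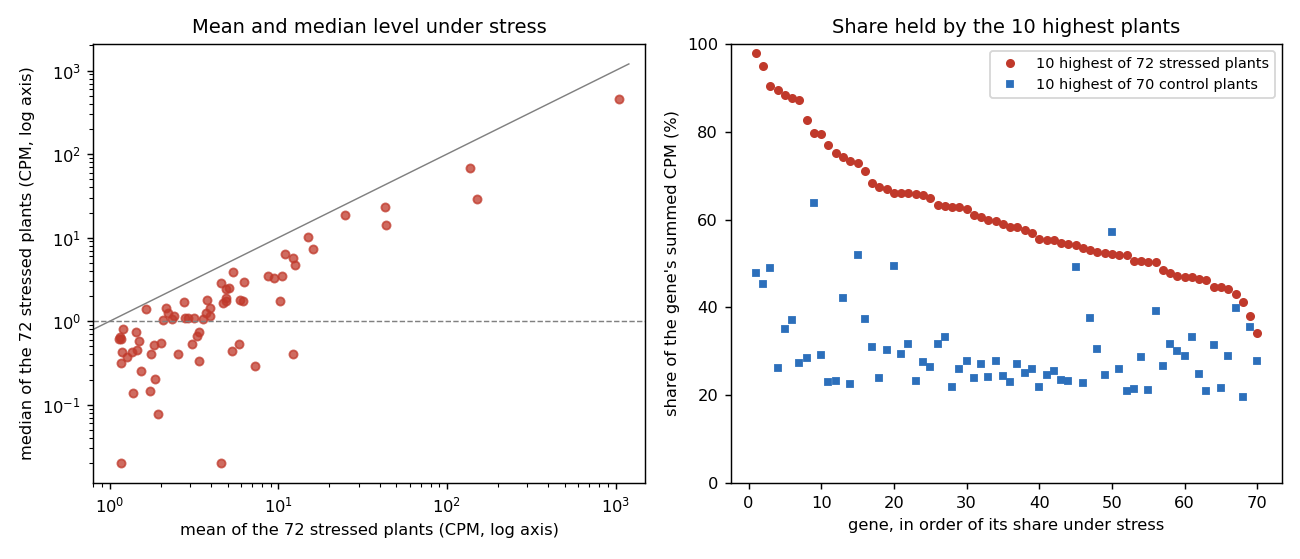
Left, the mean and the median CPM of each of the 70 genes over the 72 stressed plants, on log axes, with the line of equality in solid grey and 1 CPM dashed; the 2 genes with a median of 0 are drawn at the lower end. Right, the share of each gene's summed CPM held by its 10 highest plants under stress (circles) and in control plants (squares); under stress the shares run from 34.2% to 97.9%.

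The stress level was concentrated in few plants. For each gene, the 10 highest of its 72 stressed plants held between 34.2% and 97.9% of its summed stress CPM, with a median of 58.7%, where an even level would give 13.9%. The same share over control plants had a median of 27.6% and ran from 19.6% to 63.9%. In 56 of the 70 genes the 10 highest stressed plants held over 50%. Among the 11465 nuclear genes with a control mean at or above the lowest of the 70, the median share under stress was 20.8%. In 356 genes lowered 4- to 8-fold it was 48.6%, and in the 26 genes with a stress mean under 1 CPM it was 68.5%.

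HanXRQChr08g0211791 (chromosome 8, 11514542 to 11518228, minus strand) was the most even of the 70. It had 0, 1.40 and 6.13 CPM in its lowest, median and highest stressed plant, and 4.87, 16.9 and 42.7 CPM in its lowest, median and highest control plant. Just 1 stressed plant rose above the lowest control plant, and 2 stressed plants had 0 counts. HanXRQChr11g0330251 (chromosome 11, 42874001 to 42876230, minus strand) was next, with 3.03, 18.5 and 119 CPM in stressed plants and 8.80, 169 and 1181 CPM in control plants. It stayed above 1 CPM in all 72 stressed plants, and 59 of them lay above its lowest control plant.

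At the other end, HanXRQChr10g0312621 (chromosome 10, 222987888 to 222988514, minus strand) owed 97.9% of its summed stress CPM to 10 plants. Its stress mean of 4.57 CPM came with a median of 0, and 37 of 72 stressed plants had 0 counts. The first replicate of SF009_SF326 alone had 211 CPM from 1857 counts, and the second replicate of SF193 had 61.7 CPM. Its control plants ran from 0.135 to 751 CPM, with a median of 74.5 CPM.

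HanXRQChr06g0180691 (chromosome 6, 64940733 to 64942182, plus strand) showed the same plants on top. Its 10 highest stressed plants held 95.0% of its summed stress CPM, and 47 of 72 had 0 counts. The first replicate of SF009_SF326 had 46.9 CPM and the second replicate of SF193 had 13.5 CPM, while the control median was 14.0 CPM.

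**Figure D2:**
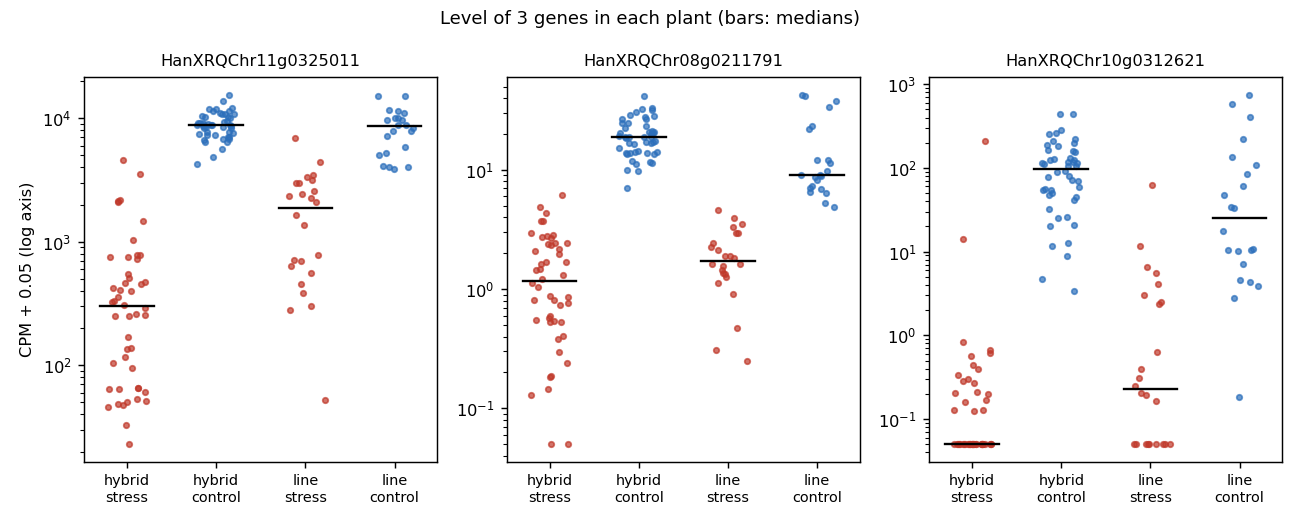
CPM plus 0.05 on a log axis for 3 of the 70 genes in each plant, by kind of plant and water supply; each point is a plant and bars are medians. HanXRQChr11g0325011 has the highest control level, HanXRQChr08g0211791 the most even stress level and HanXRQChr10g0312621 the least even one, with 37 stressed plants at 0 counts.

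A few plants recurred at the top of many of the 70 genes. Summed over the genes, stressed plants ran from 85.6 to 9179 CPM with a median of 761 CPM, and control plants from 7477 to 26601 CPM with a median of 16583 CPM. Only 1 stressed plant exceeded the lowest control plant. The 10 highest stressed plants held 48.7% of the stress CPM summed over all genes and plants, and 49.5% when HanXRQChr11g0325011 was left out. Of these 10 plants, 7 were labelled as lines and 3 as hybrids, and 1 of the 3 hybrids is the library labelled SF092_SF317 stress replicate 3, which matched SF326. Without the 3 doubted libraries the 10 highest plants were again 7 lines and 3 hybrids.

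The highest stressed plant was the second replicate of SF279, with 9179 CPM, and it was among the 10 highest plants of 55 of the 70 genes. The first replicate of SF109 followed with 7414 CPM, the second of SF193 with 6911 CPM and the first of SF009_SF326 with 6842 CPM. The last 2 of these were among the 10 highest plants of 64 and 60 genes, and the SF109 plant of only 26. The fifth was the library labelled SF092_SF317 stress replicate 3, with 6372 CPM, whose genotype does not match its label. It was among the 10 highest plants of 28 genes. A different measure was the median log2 ratio to the genotype's own control mean over 1542 other genes. These genes were 2- to 8-fold lower under stress, with a control mean of at least 10 CPM. By that measure, 6 of the 10 plants with the highest sums were among the 10 that had moved least. The first and second replicates of SF342 are among these 6 and were set against a single control library. How dry each plant was beyond the labelled FTSW was not measured in these files, and its part in the spread was not tested.

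Plants of 1 genotype could lie far apart. In SF279 the 3 stressed plants summed to 187, 3712 and 9179 CPM, and the 3 control plants lay between 12638 and 22753 CPM. In SF009_SF326 the stressed plants summed to 131, 408 and 6842 CPM, against 17201 to 20782 CPM in control plants. By the median of the 70 genes, stressed plants of a genotype differed by 0.27 to 4.76 on the log2 scale in hybrids, with a median of 1.10, and by 0.52 to 4.15 in lines, with a median of 2.37.

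Across the 24 genotypes the fold of the sum differed widely. HanXRQChr11g0325011 made up 60.7% of the summed stress CPM, so these folds need not be those of the typical gene. The sum was 101-fold lower under stress in SF092_SF342, with 197 ± 43.6 CPM in stressed plants and 19926 ± 1362 CPM in control plants (SD, n = 3 each). SF193_SF342 followed at 65.8-fold, SF109_SF279 at 45.9-fold and SF109_SF326 at 45.4-fold. The median log2 ratio of stress to control over the 70 genes gave another order. It was -5.31 in SF092_SF342, -5.10 in SF109_SF279, -4.93 in SF109_SF326 and -4.84 in SF193_SF342. The smallest fold among hybrids was 7.49 in SF009_SF326, and without the first stressed replicate of that hybrid it was 68.4. SF092_SF317 was at 8.12-fold, and at 41.3-fold without the library that matched SF326. Among lines, SF009 stood apart at 21.4-fold, with 898 ± 433 CPM under stress and 19196 ± 7359 CPM in control plants (SD, n = 3 each). Its libraries also matched their label less closely than those of other lines, apart from the doubted SF326 library, and the part of this in the fold was not tested.

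The other 7 lines had smaller folds, from 1.80 in SF342 to 7.33 in SF326. SF342 plants had 2602, 4357 and 5521 CPM under stress and 7477 CPM in the single control library, which is the lowest control sum of all. The fold of SF342 rests on that 1 control library. SF109, SF193 and SF279 were at 3.57-, 3.66- and 3.78-fold. Their median log2 ratios over the 70 genes lay further apart, at -2.71, -1.91 and -2.24. SF326 was at 5.47-fold without the library that matched SF092_SF317.

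These folds lean on single plants, by a check added after the data were seen. Leaving out the highest stressed plant can only raise a fold, so the direction was fixed and only the size of the change is described. Leaving out the highest stressed plant of a genotype raised its fold by more than 1.5 times in 9 of 16 hybrids and in 3 of 8 lines. Those 3 lines were SF109, with 10.1-fold, SF279, with 8.45-fold, and SF326, with 16.0-fold. The SF326 value still includes the library that matched SF092_SF317. Without its highest stressed plant each hybrid lay between 19.7- and 149-fold, with a median of 51.1, and each line between 2.15- and 27.7-fold, with a median of 7.18. Without its lowest stressed plant instead, each hybrid lay between 5.08- and 91.0-fold and each line between 1.51- and 17.1-fold.

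**Figure D3:**
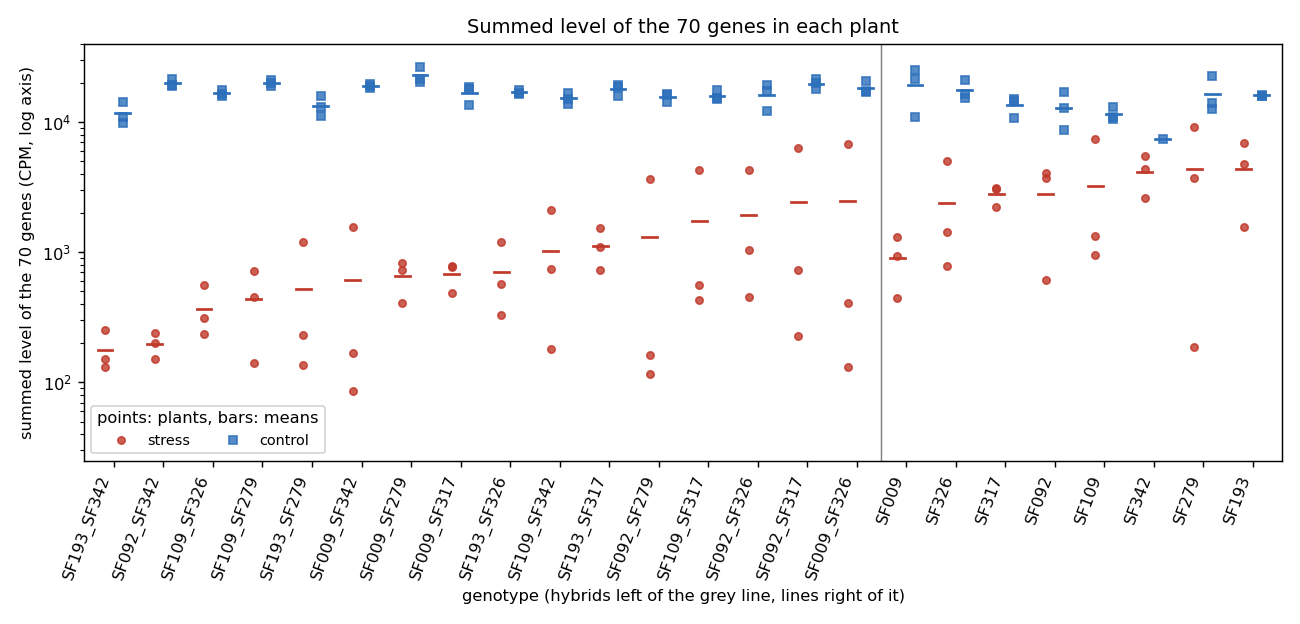
Summed CPM of the 70 genes in each plant on a log axis, by genotype, with stressed plants (circles) left of control plants (squares) and bars at the group means; hybrids stand left of the grey line and lines right of it, in order of the stress mean. Stressed hybrids reach down to 85.6 CPM, and the stressed plants of SF009 average 898 CPM, below the other 7 lines.

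Gene by gene, the fall held across most genotypes. The stress mean was below the control mean in all 24 genotypes for 41 of the 70 genes, and it was at least 8-fold lower (with 0.5 CPM added) in 9 to 23 genotypes per gene, with a median of 16. The count of 41 leans on SF342 with its 1 control library. There the stress mean was below the control mean in 43 of the 70 genes, against 68 to 70 in each other genotype. In edgeR's quasi-likelihood F-test of stress against control, averaged over genotypes with equal weight, 65 of the 70 were called lower at a Benjamini-Hochberg adjusted p of 0.05, where 32.6% of all genes were, and 0 were called higher, where 31.4% were. The rule used this contrast, so nothing is read from that count. DESeq2 and limma voom each called all 70 lower; at an unadjusted p of 0.05 edgeR called 65 lower and 0 higher.

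The 5 genes that edgeR did not call were HanXRQChr05g0142841, HanXRQChr10g0312621, HanXRQChr10g0319691, HanXRQChr13g0426031 and HanXRQChr14g0443161, named after their values were seen. In 3 of them a whole control group had 0 counts (SF317 for the first, SF342 for the last 2), and no other gene of the 70 had such a group. The single SF342 control library held 1 count of each of the other 2, but also 1 count of HanXRQChr06g0180691, which was called. With SF342 left out, 69 were called. Why these 5 genes were not called was not tested.

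Within single genotypes, the number of the 70 genes called lower ran from 2 in SF342 to 70 in SF009 and in 7 hybrids (edgeR, adjusted p of 0.05). Hybrids had 55 to 70 called, with a median of 69, and lines had 2 to 70, with a median of 34.5. All 70 were called in SF092_SF342, where 21.9% of all genes were called lower, in SF009 (18.8%), SF009_SF342 and SF109_SF279 (18.7% each), SF009_SF279 (18.2%), SF009_SF317 (16.4%), SF193_SF326 (15.8%) and SF109_SF342 (13.6%). The number was 69 in SF193_SF342 (18.8% of all genes) and SF092_SF317 (14.9%). It was 68 in SF109_SF326 (18.6%), SF193_SF317 (15.5%) and SF109_SF317 (10.2%), and 67 in SF193_SF279 (17.6%) and SF092_SF279 (12.5%). The lowest among hybrids were 57 in SF092_SF326 (8.56%) and 55 in SF009_SF326 (9.73%). Every line but SF009 had fewer, namely 50 in SF326 (7.02%), 41 in SF109 (2.95%), 35 in SF317 (3.21%), 34 in SF279 (4.38%), 22 in SF092 (1.72%), 12 in SF193 (1.22%) and 2 in SF342 (0.833%). Per gene, the call was made in 10 to 24 genotypes, with a median of 19. Without the 3 doubted libraries SF326 had 13 called (1.42% of all genes), SF092_SF317 had 70 (17.1%) and SF009_SF279 had 70 (13.9%), and the number in each of the other 21 genotypes moved by at most 7. These contrasts are pieces of the one the rule used.

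**Figure D4:**
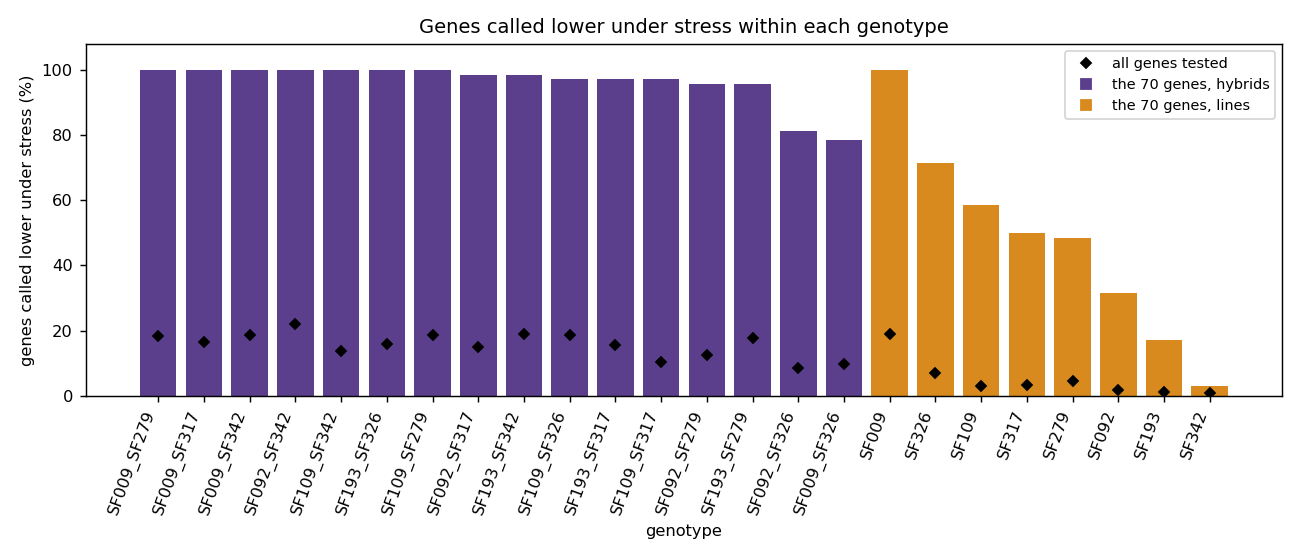
Percent of the 70 genes called lower under stress within each genotype by edgeR at an adjusted p of 0.05 (bars) and the same percent over all 36989 genes tested (diamonds). The line SF009 and 7 hybrids stand at 100%, and SF342 is lowest, at 2.86% of the 70 genes and 0.833% of all genes.

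Whether hybrids and lines respond alike is a question the design of 8 lines and their 16 hybrids raises. The sum of the 70 genes averaged 1024 ± 752 CPM in stressed hybrids and 3134 ± 1191 CPM in stressed lines (SD over 16 and 8 genotypes). In control plants it averaged 17321 ± 2740 CPM in hybrids and 14351 ± 3782 CPM in lines. The fold between these means was 16.9 in hybrids and 4.58 in lines, and the fold between medians over plants was 37.2 in hybrids and 5.26 in lines. Without the 3 doubted libraries the stress sum averaged 902 ± 659 CPM in hybrids and 3236 ± 1154 CPM in lines. The groups overlapped plant by plant, with 85.6 to 6842 CPM in stressed hybrids and 187 to 9179 CPM in stressed lines. The median log2 ratio of stress to control over the 70 genes averaged -4.32 ± 0.71 in 16 hybrids and -2.35 ± 1.12 in 8 lines (SD).

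In the test of the difference in response, 66 of the 70 genes fell further in hybrids than in lines, where 17.6% of all genes did. In the other direction, 0 fell less in hybrids, where 11.2% of all genes did (edgeR, adjusted p of 0.05). The p-values of this test, here and for single genes below, rest on the spread between plants within a group. They leave out the spread among genotypes of a kind. No gene had an unadjusted p under 0.05 in the direction of a smaller fall in hybrids, and limma voom and DESeq2 each called 68 in the direction of a larger fall and 0 in the other. The log2 difference, hybrids minus lines, had a median of -2.47 over the 70 genes and -0.08 over all genes, and was negative in all 70. Over the 60 genes with some count in every group, the median was -2.38 and 59 were called. Without the 3 libraries that go against their labels, 64 were called. With the stress labels of SF092_SF317 replicate 3 and SF326 replicate 3 exchanged, the number was again 64. The 4 genes not called were HanXRQChr06g0180691, HanXRQChr06g0182481, HanXRQChr10g0312621 and HanXRQChr11g0330251. In the first 3, from 3 to 5 stress groups had 0 counts in all plants and at least 1 of those groups was a line; no other gene of the 70 had a stressed line at 0 in all plants, and the 4 genes with such groups among hybrids alone were called. HanXRQChr11g0330251 had a log2 difference of -0.65 (SE 0.39, edgeR adjusted p = 0.238). Why these 4 genes were not called was not tested.

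That count depends on which plants chose the genes. The rule averaged 48 stressed hybrid plants with 24 stressed line plants, so a large fall in hybrids could bring a gene in. As a check added after the data were seen, the same rule was applied to line plants alone and found 32 genes, of which 12 were among the 70. Of those 32, 11 fell further in hybrids, or 34.4% beside the 17.6% of all genes, 0 fell less, 31 of the 32 log2 differences were negative and their median was -0.81. Choosing by the fall in lines leans towards genes that fall far in lines, the opposite way to the pooled rule, so neither share is free of the choice. Applied to hybrid plants alone, the rule found 167 genes, of which 55 were among the 70. Of the 167, 159, or 95.2%, fell further in hybrids, beside the 17.6% of all genes. This choice leans towards genes that fall far in hybrids, so nothing is read from that share. The 4- to 8-fold list was close to the 70 genes in this test, with 321 of 356 genes, or 90.2%, called further lower in hybrids, and the list under 1 CPM had 17 of 26, or 65.4%.

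HanXRQChr10g0287241 (chromosome 10, 51859178 to 51861878, plus strand) had the largest called difference of response. Hybrids had 0, 0.279 and 28.0 CPM in the lowest, median and highest stressed plant, and 45.8, 179 and 280 CPM in control plants. Lines had 0, 5.12 and 64.0 CPM under stress and 21.7, 87.2 and 273 CPM in control plants. Stressed plants overlapped between the kinds, while the middle hybrid lay well under the middle line. The log2 difference of responses, hybrids minus lines, was -4.41 (SE 0.64, edgeR adjusted p = 1.70e-07).

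HanXRQChr13g0426031 (chromosome 13, 195608601 to 195609958, plus strand) followed at -3.99 (SE 0.88, edgeR adjusted p = 0.000231). Its control plants had 0.387, 25.5 and 146 CPM in the lowest, median and highest hybrid, and 0, 2.41 and 104 CPM in the lowest, median and highest line. Stressed plants had medians of 1.04 CPM in hybrids and 1.75 CPM in lines. The SF342 control library had 0 counts, so the fitted value depends on the prior count; without SF342 it was -2.72 (adjusted p = 0.00368).

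By water supply, most of the 70 genes were lower in hybrids under stress, and a smaller number were higher in hybrid control plants. Among stressed plants, 61 were lower in hybrids than in lines, where 21.3% of all genes were, and 0 were higher, where 23% were (edgeR, adjusted p of 0.05); without the 3 doubted libraries 61 were again lower. At an unadjusted p of 0.05, 0 were higher, and limma voom and DESeq2 also called 0 higher. The median log2 difference was -1.66 over the 70 genes and 0.04 over all genes. Among control plants, 35 were higher in hybrids, where 20.4% of all genes were, and 1 was lower, where 12.7% were; without the 3 doubted libraries these counts were again 35 and 1. The median there was 0.74 over the 70 genes and 0.10 over all genes, and 62 of 70 values were positive. Both calls fell on the same gene in 27 cases. The same choice of genes bears on these counts, and their p-values likewise rest on the spread between plants within a group.

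**Figure D5:**
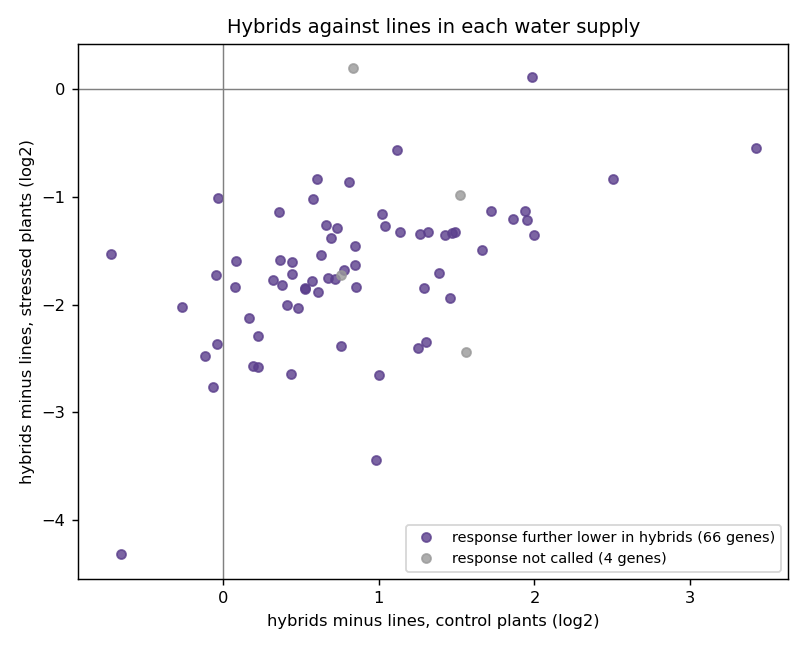
Fitted log2 difference between hybrids and lines (hybrids minus lines) for each of the 70 genes, in control plants on the x axis and in stressed plants on the y axis. Points lie below 0 on the y axis for 68 of 70 genes and above 0 on the x axis for 62 of 70; the 4 grey genes were not called in the test of the difference in response.

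The largest difference among stressed plants was in HanXRQChr15g0475521 (chromosome 15, 42287499 to 42290143, minus strand). Hybrids had 0, 0.153 and 140 CPM in the lowest, median and highest stressed plant, and lines had 0, 10.9 and 139 CPM. The highest plants were close and the medians far apart. Hybrids were lower by a log2 difference of -4.32 (SE 0.50, edgeR adjusted p = 8.03e-12). In control plants the medians were 118 CPM in hybrids and 190 CPM in lines, a difference that missed the threshold (log2 difference -0.66, SE 0.37, edgeR adjusted p = 0.183). Next was HanXRQChr10g0287241, described above, at -3.44 (SE 0.50, edgeR adjusted p = 1.16e-08).

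Among control plants, HanXRQChr13g0426031 had the largest difference, at 3.43 (SE 0.64, edgeR adjusted p = 1.06e-05), and 2.36 without SF342. HanXRQChr14g0443161 (chromosome 14, 113584021 to 113588764, plus strand) had 0, 21.7 and 132 CPM in the lowest, median and highest hybrid control plant, and 0, 1.54 and 137 CPM in line control plants. Its log2 difference was 2.50 (SE 0.69, edgeR adjusted p = 0.00255), and 1.37 without SF342, whose control library had 0 counts of it. The single gene called lower in hybrid control plants was HanXRQChr08g0235161 (chromosome 8, 135584722 to 135586772, plus strand). It had 16.5, 42.8 and 137 CPM in hybrid control plants and 24.9, 66.8 and 230 CPM in line control plants (log2 difference -0.72, SE 0.20, edgeR adjusted p = 0.00273).

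Set beside the lines in their names, 15 of the 16 hybrids had a lower stress sum than both lines. In the other one, SF009_SF326, the stressed plants averaged 2460 CPM, beside 898 CPM in SF009 and 2407 CPM in SF326. Without the doubted library of SF326 that line averaged 3221 CPM, and SF009_SF326 lay between its 2 lines; without all 3 doubted libraries, 15 hybrids again had a lower stress sum than both lines. In control plants 7 hybrids lay above both lines, 8 between them and 1 below both, with the same counts when the doubted libraries were left out. Each line is shared by 4 hybrids, so these 16 placements are not independent, and no test was run on them.

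The fall also differed among genotypes as a whole. The interaction of genotype and water supply was called for 52 of the 70 genes, or 74.3%, where 11.9% of all genes were called (edgeR, 23 degrees of freedom, adjusted p of 0.05). It was called in 65.4% of the 356 genes lowered 4- to 8-fold and in 57.7% of the 26 genes under 1 CPM. Of the 52, 50 were also called in the test of hybrids against lines. With limma voom it was called for 34, or 48.6%, beside 13.6% of all genes. With 1 replicate number left out it was called for 8 to 26, or 11.4% to 37.1%, beside 1.14% to 1.75% of all genes; the 8 came without replicate 2. Without the 3 libraries that go against their labels it was 54, or 77.1%, beside 13.1% of all genes.

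The smallest interaction p-values were those of HanXRQChr08g0211791 (edgeR adjusted p = 6.45e-07) and HanXRQChr11g0337411 (chromosome 11, 87808809 to 87815498, minus strand; edgeR adjusted p = 9.19e-07). HanXRQChr11g0337411 had 0, 0.180 and 8.68 CPM in the lowest, median and highest stressed hybrid and 6.97, 14.6 and 52.5 CPM in hybrid control plants. Lines had 0, 1.12 and 7.31 CPM under stress and 1.504, 7.36 and 19.4 CPM in control plants. It fell further in hybrids, with a log2 difference of -3.13 (SE 0.44, edgeR adjusted p = 1.02e-07).

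Among the 16 hybrids, few of the 70 genes differed in response by parent. A difference by first-named parent was called for 2 genes, or 2.86%, where 1.46% of all genes were called. By second-named parent it was called for 2, or 2.86%, where 1.48% were (edgeR, 3 degrees of freedom, adjusted p of 0.05). Both are close to the share of all genes. At an unadjusted p of 0.05 the numbers were 7 and 15, and limma voom called 2 for each parent. No share of all genes is given beside these counts, so nothing is read from them. Over the 70 genes, the median log2 ratio of stress to control averaged from -4.50 to -3.96 by first-named parent and from -4.84 to -3.91 by second-named parent, each over 4 hybrids.

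HanXRQChr08g0211791 was called for both parents (edgeR adjusted p = 0.0229 for the first-named and 2.13e-06 for the second-named). Its log2 ratio of stress to control means was -4.81 ± 1.03 in hybrids with SF279 as the second-named parent, -3.31 ± 1.06 with SF326, -3.27 ± 0.70 with SF342 and -2.52 ± 0.62 with SF317 (SD, n = 4 hybrids each). HanXRQChr11g0337411 was called for the first-named parent (edgeR adjusted p = 0.000313). Its stress mean was 1.96 ± 1.08 CPM in hybrids with SF092, and 0.501 ± 0.800, 0.403 ± 0.435 and 0.322 ± 0.290 CPM with SF009, SF109 and SF193 (SD, n = 4 each). By label, hybrids with SF092 thus had more of it under stress, while control means lay between 13.8 and 18.5 CPM. Their stressed plants include the library labelled SF092_SF317 stress replicate 3, which matched the line SF326. The part of that library in the SF092 mean was not tested.

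HanXRQChr08g0222741 (chromosome 8, 56556727 to 56558350, plus strand), named after its values were seen, was called for the second-named parent (edgeR adjusted p = 0.0274). Its stress means ran from 0.454 ± 0.192 CPM with SF326 to 0.957 ± 0.551 CPM with SF279. Its control means were 36.2 ± 14.5 CPM with SF342, 18.05 ± 6.36 CPM with SF326, 11.2 ± 4.26 CPM with SF317 and 8.14 ± 3.46 CPM with SF279 (SD, n = 4 hybrids each). The parent calls turned on single replicate numbers: with 1 replicate number left out, 0 or 1 gene was called for the first-named parent and 1 for the second-named parent. Without the 3 libraries that go against their labels, 1 was called for the first-named parent and 2 for the second-named parent.

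In control plants alone, genotypes differed in 21 of the 70 genes, or 30.0%, where 67.2% of all genes were called (edgeR, 23 degrees of freedom, adjusted p of 0.05). With limma voom 48 were called, or 68.6%, beside 67.8% of all genes, so how far the 70 genes vary among well-watered genotypes depended on the tool. Without the 3 doubted libraries edgeR called 23. The control mean was above 1 CPM in every genotype for 63 of the 70 genes.

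Position and length were not used by the rule. The 70 genes lie on all 17 chromosomes, with 35 on each strand. Chromosome 10 carries 11 of them, or 1.29% of its 852 genes at or above the lowest control mean of the 70, chromosome 6 carries 6 of 454, or 1.32%, and chromosomes 1, 7, 12 and 16 carry 1 each. Closeness was described by counting other genes of the 70 within 10 annotated genes, with no number by chance computed. There was 1 such pair, HanXRQChr17g0563041 and HanXRQChr17g0563141 on chromosome 17, 732269 bp apart, and none of the 70 lay that close to a gene of the list under 1 CPM.

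The median length of the 70 gene models in the deposited table was 2590 bp, and lengths ran from 303 to 25285 bp. It was 2210.5 bp in the 26 genes with a stress mean under 1 CPM, 3437 bp in the 356 genes lowered 4- to 8-fold, and 4714 bp in the 11465 nuclear genes with a control mean at or above the lowest of the 70. Under 500 bp were 6 of the 70, or 8.57%, against 1.60% of the comparison genes. The part of length in these results was not tested.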

How the data were processed

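Leaf RNA was sequenced as oriented paired libraries, per the labels' protocols, and the authors deposited whole-number read counts per gene, which were used here. R 3.3.3 and edgeR 3.16.5 appear in the submitters' processing notes; for the aligner, the counter and the build, the answer is not given in the sources used. The authors' second table, after their filtering, was not used. All 142 columns matched a sample by genotype, water supply and replicate number. The 17 rows noted as ribosomal RNA held 0.00237% of counts and were left out.

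CPM was counts over the library total. The 70 genes came from this CPM, and the genes and lists were chosen with earlier results of these data known. Tests used edgeR 4.0.16 (R 4.3.3): filterByExpr over the 48 groups kept 36989 genes, all 70 included, with TMM scaling, a trended dispersion, glmQLFit (robust) with 1 mean per genotype and water supply, F-tests of contrasts, and Benjamini-Hochberg adjustment over all genes tested. With 1 library, the SF342 control group takes its spread from the rest. Standard errors are the log2 difference over the root of F. On simulated data for hybrids against lines (4000 genes), the test recovered 82% of 2-fold and 94% of 4-fold changes, with 4.35% false calls. The simulation used a single dispersion, independent plants and, apart from the planted changes, a single mean per gene for all groups. Real stressed plants of a genotype could lie far apart over many of the 70 genes at once. These rates therefore do not carry over to the real data. Libraries had no molecular identifiers, and precision rests on the spread between plants. No 2 libraries were identical.

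Named by rule were the 2 genes of the 70 with the highest control mean, the 2 most and 2 least even under stress, the 2 largest called differences per direction between hybrids and lines, and the 2 smallest interaction p-values. Alternatives were RLE size factors, library totals alone, no filter, limma voom (limma 3.58.1), DESeq2 1.42.0, a replicate block, each replicate number left out, SF342 left out, the 3 doubted libraries left out, and other forms of the rule. Added after the data were seen were an exchange of 2 labels, the rule in lines or hybrids alone, and folds without a genotype's highest or lowest plant. DESeq2 was run for the average response and the tests of hybrids against lines.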

Additional observations from a re-analysis of the deposited data

Results flagged for a closer look

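A difference between groups, tested on the difference itself, marked 6 results. The drought response differed between hybrids and lines in 66 of the 70 genes, all falling further in hybrids, where 17.6% of all genes did. That test rests on the spread between plants within a group and leaves out the spread among genotypes of a kind. The choice of the 70 genes bears on that count: of 32 genes chosen by the same rule in line plants alone, 11 did, or 34.4%, and that choice leans the opposite way. The log2 difference of responses, hybrids minus lines, was -4.41 in HanXRQChr10g0287241 and -3.99 in HanXRQChr13g0426031; the second value depends on the prior count, since the single SF342 control library had 0 counts, and was -2.72 without SF342. The response differed among the 24 genotypes in 52 of the 70 genes, or 74.3%, beside 11.9% of all genes. It differed with the first-named parent in 2 genes (1.46% of all genes) and with the second-named parent in 2 genes (1.48% of all genes), close to the share of all genes, of which HanXRQChr08g0211791 counts in both.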

How the results depend on the processing

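Of 161 recomputed summary values, 147 stayed within 1.5 times the value reported, and 150 of 156 values of single named genes kept their direction and their side of the threshold; none changed sign. The interaction count of 52 became 34 with limma voom and ran from 8 to 26 with 1 replicate number left out. Differences among genotypes in control plants rose to 48 with limma voom. The first-named parent count ran from 0 to 1 with 1 replicate number left out and was 1 without the 3 doubted libraries; the second-named parent count was 1 with each replicate number left out. The rule gave 107 genes with TMM library sizes (all 70 shared) and 184 with medians over plants (40 shared). With 1 replicate number left out it gave 47 to 102 genes, and the hybrid against line response was called in 54 to 57. HanXRQChr10g0312621 (adjusted p = 0.0833 for the average response) passed under 5 alternatives, and HanXRQChr06g0180691 missed the threshold with no filter (adjusted p = 0.0535); the cause was not tested.

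Same-numbered stressed and control plants were taken as sharing only a number. Over 69 pairs their residuals correlated with a median of 0.12, above 0, in a range of -0.18 to 0.39. All pairs of a genotype exceeded 0.1 in 4 genotypes. What same-numbered plants may share was not tested. With a replicate block the counts were 65 for the average response, 66 for hybrids against lines, 50 for the interaction, 34 higher and 1 lower in hybrid control plants, 61 lower in stressed hybrids, 21 among control genotypes and 2 for each parent. TMM factors averaged 1.08 ± 0.0751 under stress and 0.928 ± 0.0656 in control libraries (SD), and with library totals alone the median of all genes in the average response moved by over 0.1, to 0.22, beside 0.03 in the fit reported. Levels under 1 CPM rest on few counts, so zero counts in single plants are not evidence of absence.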
